A study of Mus musculus with 9 samples.

Results

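Type I interferon-stimulated genes, 38 in all, were examined among 34797 genes measured in neutrophils of mouse skin, papilloma and tumor. The members were taken by name from the array annotation as antiviral genes that interferon induces. The cells came from FVB/N mice given the carcinogen DMBA when 6 weeks and again when 13 weeks old, and the tumor promoter PMA from week 1 to week 18 to 20, a treatment that the skin groups share with the lesion groups. Gr-1bright neutrophils, that is cells with a strong signal for the Gr-1 antibody, were sorted from skin adjacent to papilloma (papilloma skin, 2 arrays), skin adjacent to tumor (tumor skin, 2 arrays), papilloma (3 arrays) and tumor (2 arrays). Each array held RNA pooled from several mice, untreated skin was not analysed here, and dispase and DNase were used to dissociate the lesions but not the skin, so that tissue and dissociation cannot be told apart.

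Type I interferons (interferon alpha and beta) bind a receptor made of IFNAR1 and IFNAR2. The kinases JAK1 and TYK2 then activate a complex of transcription factors that includes IRF9 and binds a short DNA element, the interferon-stimulated response element, in the promoters of target genes. The products block viral RNA and protein synthesis, sense nucleic acids, attach the ubiquitin-like protein ISG15 to other proteins, and attract lymphocytes. Neutrophils carry the receptor and switch on many of these genes. Interferon gamma induces many of the same genes, so that no single target gene tells the interferons apart.

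Promoter sequences from RefSeq (GRCm38.p6, 250 bases before to 50 after the start) were found for 30 of the 38 members, and are shown for the members that carried a match among those that changed in the comparisons described here. The core of the response element, GAAANNGAAA on either strand, lay in the promoters of 16 of the 30 members (53.3%) and of 1079 of 27025 genes with a promoter (3.99%). The gamma-activated site TTCNNNGAA lay in 7 of the 30 (23.3%) and in 2582 of all 27025 (9.55%). A match is a description of letters and not of binding. The capitals mark the match of the core nearest the start among those lying before it, and each stretch reads 5′ to 3′ on the strand of the gene. The first 4 genes were higher in tumor than tumor skin and the last 2 were lower in papilloma than papilloma skin.
Ifit1 (chr19:34640779-34640838, plus strand): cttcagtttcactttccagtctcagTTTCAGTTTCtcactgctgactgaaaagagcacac
Isg15 (chr4:156200850-156200909, minus strand): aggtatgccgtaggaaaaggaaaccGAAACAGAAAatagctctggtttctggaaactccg
Rsad2 (chr12:26456538-26456597, minus strand): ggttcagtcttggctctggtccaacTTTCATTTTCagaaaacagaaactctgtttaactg
Cxcl10 (chr5:92349068-92349127, minus strand): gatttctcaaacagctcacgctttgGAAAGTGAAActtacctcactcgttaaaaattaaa
Oas1a (chr5:120907526-120907585, minus strand): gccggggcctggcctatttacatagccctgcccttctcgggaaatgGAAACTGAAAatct
Gbp3 (chr3:142559980-142560039, plus strand): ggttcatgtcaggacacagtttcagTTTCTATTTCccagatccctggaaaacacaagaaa
The match lay 75 bases before the start in Ifit1, 56 in Isg15, 110 in Rsad2, 203 in Cxcl10, 4 in Oas1a and 29 in Gbp3. Isg15 held 3 such matches before its start, Ifit1, Oas1a and Gbp3 held 2 each, and Rsad2 and Cxcl10 held 1. Of the members higher in tumor that had a promoter, Herc6 and Trim25 held no match in these 300 bases. Cmpk2, lower in papilloma, held none either. Ifitm3, lower in tumor, held a match, but none that lay wholly before its start.

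The arrays and the deposited values did not all correspond, which bears on every result. In the scanner files, the log signal rose with the log amount of spiked-in control RNA with a slope of 0.6778 for papilloma skin 1, 0.8759 for tumor skin 1 and 0.8944 for tumor 1, against 1.041 to 1.056 on the other 6. In the value table, the column papilloma skin 1 correlated over probes with its own scanner file at a rank correlation of 0.588 and with that of tumor 2 at 0.924. The column tumor 1 correlated with its own file at 0.827 and with that of tumor 2 at 0.947, while the other 7 columns followed their own files at 0.931 to 0.980. Papilloma 2 and papilloma 3 each followed the other's file most closely (0.981 and 0.959), which leaves their group as it is. The slide of these columns is in doubt, since the file of papilloma 2 is of slide 2 and that of papilloma 3 of slide 3. Results of the deposited values by slide rest on that assignment. Counts are therefore also given without the columns papilloma skin 1 and tumor 1, and with the scanner files of the 6 arrays of full slope. All values below are log2 levels of the deposited table, with the median taken over the probes of a gene. Of the 6 full-slope arrays, Oas1g was well above background on 2, Ifi44 on 4, Mx1 on 5 and each of the other members on all 6. The neutrophil markers Csf3r, Cxcr2, S100a8 and S100a9 were among 12 such markers measured, and the log2 of the summed level of all 12 was 19.96 to 20.28 over the 9 arrays. The sum is weighted to the most abundant markers, S100a8 and S100a9 (17.88 to 18.63), and does not show that the others were steady. Ly6g was at 12.65 and 12.22 in tumor skin and at 10.74 and 9.95 in tumor. It fell in tumor, and Retnlg fell in both lesions, as given below.

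Papilloma neutrophils were compared with those of the surrounding skin first. Of the 38 genes, 4 fell in papilloma and 1 rose, at an adjusted p of at most 0.05 in limma over all genes. The genes that fell were Oas1a, Cmpk2, Dhx58 and Gbp3, and the gene that rose was Trim25. Over the whole array, 2.75% of genes fell and 4.8% rose. When only genes whose mean level reached 6 were tested, 5 of 37 members were called, as were 12.9% of those genes. The members were thus called about as often as other genes of such levels. The median log2 fold change of the 38 was -0.32, with 25 negative, against -0.01 for all genes.

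Oas1a makes an oligoadenylate synthetase, which on meeting double-stranded RNA forms the messenger that activates RNase L. Its log2 level was 12.23 and 12.09 in papilloma skin and 10.91, 10.90 and 11.40 in papilloma. The groups did not overlap, and the level was 2.13-fold lower in papilloma (log2 fold change -1.09, SE 0.234, adjusted p = 0.0289). Its probes gave -1.13 and -1.06. The other 5 genes of this family, Oas1g, Oas2, Oas3, Oasl1 and Oasl2, did not pass the test, and their log2 fold changes ran from -0.61 in Oas3 to 0.00 in Oas1g.

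Dhx58 (LGP2, a relative of the RNA sensors RIG-I and MDA5) was at 9.07 and 8.78 in papilloma skin and at 8.08, 7.97 and 8.31 in papilloma. Every papilloma array lay below both skin arrays (log2 fold change -0.80, SE 0.167, adjusted p = 0.0255). Cmpk2, a mitochondrial nucleotide kinase that lies beside Rsad2 in the genome, was at 8.15 and 7.95 in papilloma skin and at 7.11, 7.05 and 7.55 in papilloma (-0.81, SE 0.193, adjusted p = 0.0426). The large GTPase Gbp3 was at 10.05 and 10.34 in papilloma skin and at 9.37, 9.65 and 9.35 in papilloma (-0.74, SE 0.149, adjusted p = 0.0237). In none of these genes did the groups overlap. Papilloma lay wholly below papilloma skin in 10 of the 38 genes and in 6414 of all 34797. All 4 GTPases of the list had a negative change, and Gbp3 was the only one called. Mx1, which traps viral nucleocapsids, had the largest negative value of the list (-1.10, SE 0.657) with an adjusted p of 0.39, since its arrays ranged from 7.12 to 8.62 in papilloma skin and from 5.67 to 7.48 in papilloma.

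Trim25 makes a ubiquitin ligase that acts on RIG-I. Its level was 13.12 and 13.19 in papilloma skin against 14.16, 14.09 and 14.04 in papilloma, a gap wider than the spread within either group. The change was 1.92-fold (log2 fold change 0.94, SE 0.116, adjusted p = 0.00313). One probe gave 1.23 (adjusted p = 0.00252 by probe) and the other 0.66 (adjusted p = 0.0636), so that the probes shared a direction but not the call. Isg15 (0.21), Ifit1 (-0.32), Irf7 (-0.36) and Cxcl10 (0.20) did not pass the test, with adjusted p of 0.788, 0.497, 0.656 and 0.605.

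The lower values in papilloma depended on the source of the values. With the columns papilloma skin 1 and tumor 1 left out, Trim25 alone was called (3.13% of all genes were), with a list median of -0.18. With slide as a term in the model, again 1 gene was called (2.55% of all genes). With the replicate number as a block none was (1.33% of all genes). In the scanner files of all 9 arrays, with quantile normalization and ComBat, the list median turned to 0.75 and 6 genes were called higher against 1 lower, where 16.5% of all genes were called. Of the 5 called genes, 2 (Trim25 and Dhx58) kept their sign there, while Oas1a gave 0.26, Gbp3 1.15 and Cmpk2 0.73, and the same 2 kept it under the other scanner settings with all 9 arrays. In the 6 full-slope arrays the list median was -0.40, with all 5 called genes in the same direction. That fit held 1 papilloma skin array and no slide correction, and the same arrays also underlie the deposited values. Within slide 1, which rests on the column papilloma skin 1, the median was -0.42. Within slide 2, which rests on the column papilloma 2, whose slide is in doubt, it was -0.36. Leaving out papilloma 2 left 2 calls (4.44% of all genes) and leaving out papilloma 1 left 1 (3.94%), against 7.56% in the main fit. Without papilloma skin 1 or papilloma skin 2, a single skin array remained, and the list median was -0.18 or -0.25.

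**Figure D1:**
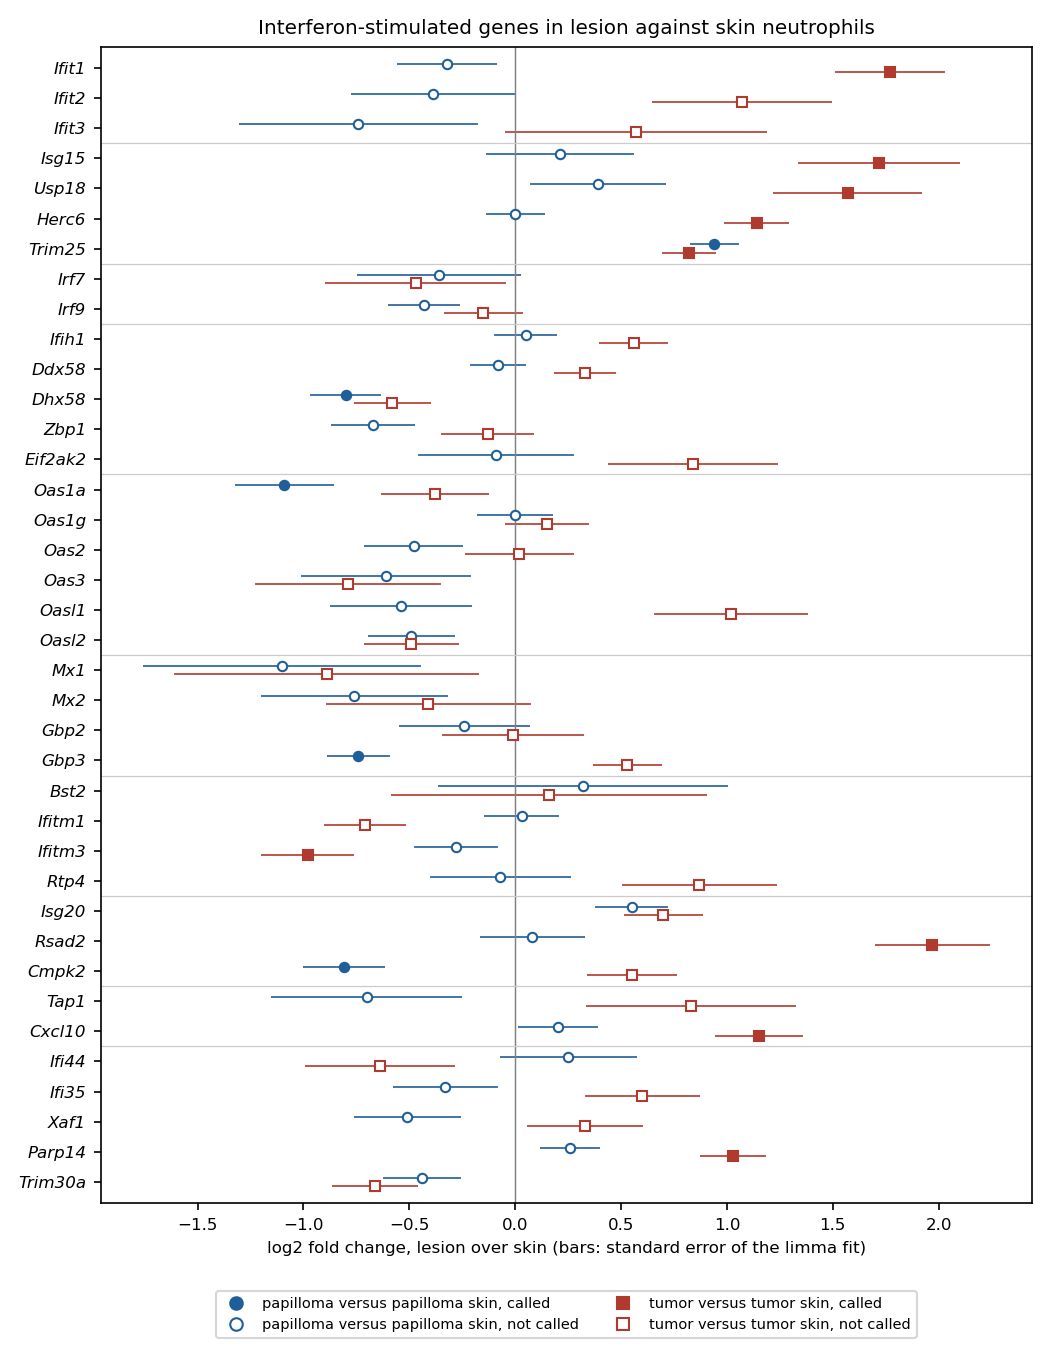
Log2 fold change of each of the 38 genes in papilloma against papilloma skin (blue circles) and in tumor against tumor skin (red squares), with the standard error of the limma fit as bars; filled symbols passed an adjusted p of 0.05 and grey lines part the roles. Red symbols of the ISG15 genes and of Ifit1 and Rsad2 lie between 0.82 and 1.97, while the filled blue symbols other than Trim25 lie below 0.

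Tumor neutrophils were compared with those of tumor skin in the same way. In tumor 8 genes rose and 1 fell, and over the whole array 6.17% of genes rose and 4.22% fell. Rsad2, Ifit1, Isg15, Usp18, Cxcl10, Herc6, Parp14 and Trim25 were higher in tumor, by 1.77-fold to 3.92-fold, and Ifitm3 was lower. The median log2 fold change of the 38 was 0.43 (24 positive) against -0.01 for all genes. When only genes whose mean level reached 6 were tested, 11 of 37 members were called, as were 17.3% of those genes. With the added minimum of the study's methods (a change of at least 1 on the log2 scale and a mean level of at least 6), 7 of the 38 were called, as were 4.36% of all genes, against 1 of the 38 and 3.6% of all genes in papilloma.

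The 4 members of the ISG15 system rose. Isg15 itself, the ubiquitin-like modifier, was at 11.79 and 10.78 in tumor skin and at 13.13 and 12.87 in tumor, a 3.28-fold difference (log2 fold change 1.72, SE 0.383, adjusted p = 0.0299). Its probes gave 1.77 and 1.67. In papilloma skin and papilloma, Isg15 ran from 12.34 to 13.32, so that the tumor skin arrays were the lowest of the series. Usp18, the protease that removes ISG15 and also restrains the type I receptor, was at 8.06 and 8.42 in tumor skin and at 9.93 and 9.68 in tumor (1.57, SE 0.350, adjusted p = 0.0298). Herc6, the main ligase for ISG15 in the mouse, was at 6.56 and 6.63 in tumor skin and at 7.85 and 7.63 in tumor (1.14, SE 0.152, adjusted p = 0.00492). Both tumor arrays were above all 7 others for Usp18 and for Herc6. In the scanner files of all 9 arrays, with quantile normalization and ComBat, that held for neither gene. Trim25 was at 13.16 and 13.31 in tumor skin and at 14.06 in both tumor arrays (0.82, SE 0.127, adjusted p = 0.00804), and its level in tumor was close to that in papilloma. Here again a single Trim25 probe carried the call, with 1.37 (adjusted p = 0.00305 by probe) against 0.27 (adjusted p = 0.394) for the other.

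Rsad2 makes viperin, an enzyme that forms a chain-terminating nucleotide. It was at 9.45 and 9.42 in tumor skin and at 11.35 and 11.46 in tumor, the largest change of the 38 (3.92-fold, log2 fold change 1.97, SE 0.271, adjusted p = 0.0055). Its neighbor Cmpk2 was at 7.59 and 7.45 in tumor skin and at 8.26 and 7.87 in tumor, and did not pass (0.55, adjusted p = 0.142). Ifit1, which binds viral RNA lacking the host's cap methylation, was at 8.10 and 8.39 in tumor skin and at 10.07 and 9.96 in tumor (3.42-fold, 1.77, SE 0.259, adjusted p = 0.00669). For both Rsad2 and Ifit1, the tumor arrays were the highest of the series and the tumor skin arrays the lowest. In the scanner files of all 9 arrays, with quantile normalization and ComBat, that held for neither gene. There papilloma 1 was the highest (10.89 for Rsad2 and 9.06 for Ifit1) and papilloma skin 1 the lowest (7.41 and 6.94). Ifit2 (1.07, adjusted p = 0.15) and Ifit3 (0.57, adjusted p = 0.611) of the same family did not pass the test. Ifit3 was at 7.18 and 8.43 in tumor skin and at 8.63 and 8.10 in tumor, so that its groups overlapped.

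Cxcl10, the chemokine that draws CXCR3-bearing T cells, was at 9.71 and 9.54 in tumor skin and at 10.51 and 11.03 in tumor (2.22-fold, log2 fold change 1.15, SE 0.207, adjusted p = 0.0141). These are means of probes that disagreed. The probe at chr5:92775781-92775840 of mm9 gave 2.04 (adjusted p = 0.00715 by probe) and the one at chr5:92776616-92776675 gave 0.27 (adjusted p = 0.364), the widest gap among the 13 members with more than 1 probe. Parp14, a mono-ADP-ribosyltransferase, was at 11.00 and 10.75 in tumor skin and at 11.92 and 11.90 in tumor (1.03, SE 0.155, adjusted p = 0.00725). Its tumor arrays were the highest of the series. In the scanner files of all 9 arrays, with quantile normalization and ComBat, tumor skin 1 (11.38) lay above them.

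Ifitm3, a membrane protein that blocks virus entry, ran the other way. Its level was 14.36 and 14.54 in tumor skin and 13.70 and 13.25 in tumor (log2 fold change -0.98, SE 0.219, adjusted p = 0.0305), and the groups did not overlap. Tumor lay wholly above tumor skin in 19 of the 38 genes and wholly below in 6. Over all 34797 genes, these counts were 9134 and 9120. Ifitm1 was at 17.30 and 17.41 in tumor skin and at 16.84 and 16.45 in tumor without passing the test (-0.71, adjusted p = 0.0551). Neither transcription factor of the list passed in either lesion. Irf7, which amplifies interferon production, was at 10.40 and 9.40 in tumor skin and at 9.79 and 9.08 in tumor (-0.47, adjusted p = 0.532), and Irf9 gave -0.15 (adjusted p = 0.653). None of the 5 nucleic acid sensors and kinases passed in tumor, where Dhx58 gave -0.58, Zbp1 -0.13, Ddx58 0.33, Ifih1 0.56 and Eif2ak2 0.84.

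In tumor too the list as a whole depended on the source. Without the columns papilloma skin 1 and tumor 1, 8 genes were called (5.18% of all genes were), of which 6 were shared (Ifit1, Herc6, Trim25, Ifitm3, Rsad2 and Cxcl10). Ifitm1 and Trim30a then passed as lower, while Isg15, Usp18 and Parp14 gave 1.58, 1.44 and 1.02 with adjusted p of 0.143, 0.097 and 0.0551. With slide as a term, 3 genes were called, Ifit1, Usp18 and Rsad2, all higher (0.601% of all genes were called). With the replicate number as a block, 3 were called, Ifit1, Herc6 and Rsad2 (1.79% of all genes). In the scanner files of all 9 arrays, with quantile normalization and ComBat, no member was called (6 had an unadjusted p under 0.05, and 0.825% of all genes were called) and the list median was -0.37. Of the 9 called genes, 7 kept their sign there, 6 where slide was fitted instead of ComBat, 7 when scaled to the 75th percentile and 9 with normexp. With quantile normalization and ComBat, the means of tumor skin and tumor were 9.87 and 10.34 for Rsad2, and 8.27 and 8.95 for Ifit1. They were 11.42 and 12.39 for Isg15, 6.18 and 6.53 for Herc6, and 13.12 and 13.44 for Trim25. For Ifitm3 they were 14.4 and 13.44, and for Cxcl10 10.03 and 10.04. Usp18 (8.69 and 8.68) and Parp14 (11.15 and 11.1) did not keep their sign. In the 6 full-slope arrays the median was 0.08, with 1 array each of tumor and tumor skin. There Isg15 gave 2.69, Rsad2 2.18, Ifit1 1.72, Cxcl10 1.70, Herc6 1.45, Parp14 1.16, Usp18 0.86, Trim25 0.67 and Ifitm3 -1.08. Each had the direction of the deposited values, which the same arrays also underlie. Tumor 2 lay on slide 2 and tumor skin 2 on slide 3, with no slide correction, so that slide and tissue cannot be told apart there. Within slide 1, the only slide with both groups, the list median was 0.52, which rests on the column tumor 1. Leaving out tumor 2 left 3 calls (Ifit1, Herc6 and Rsad2, with 1.99% of all genes called), and leaving out tumor skin 2 left 5 (4.97% of all genes).

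**Figure D2:**
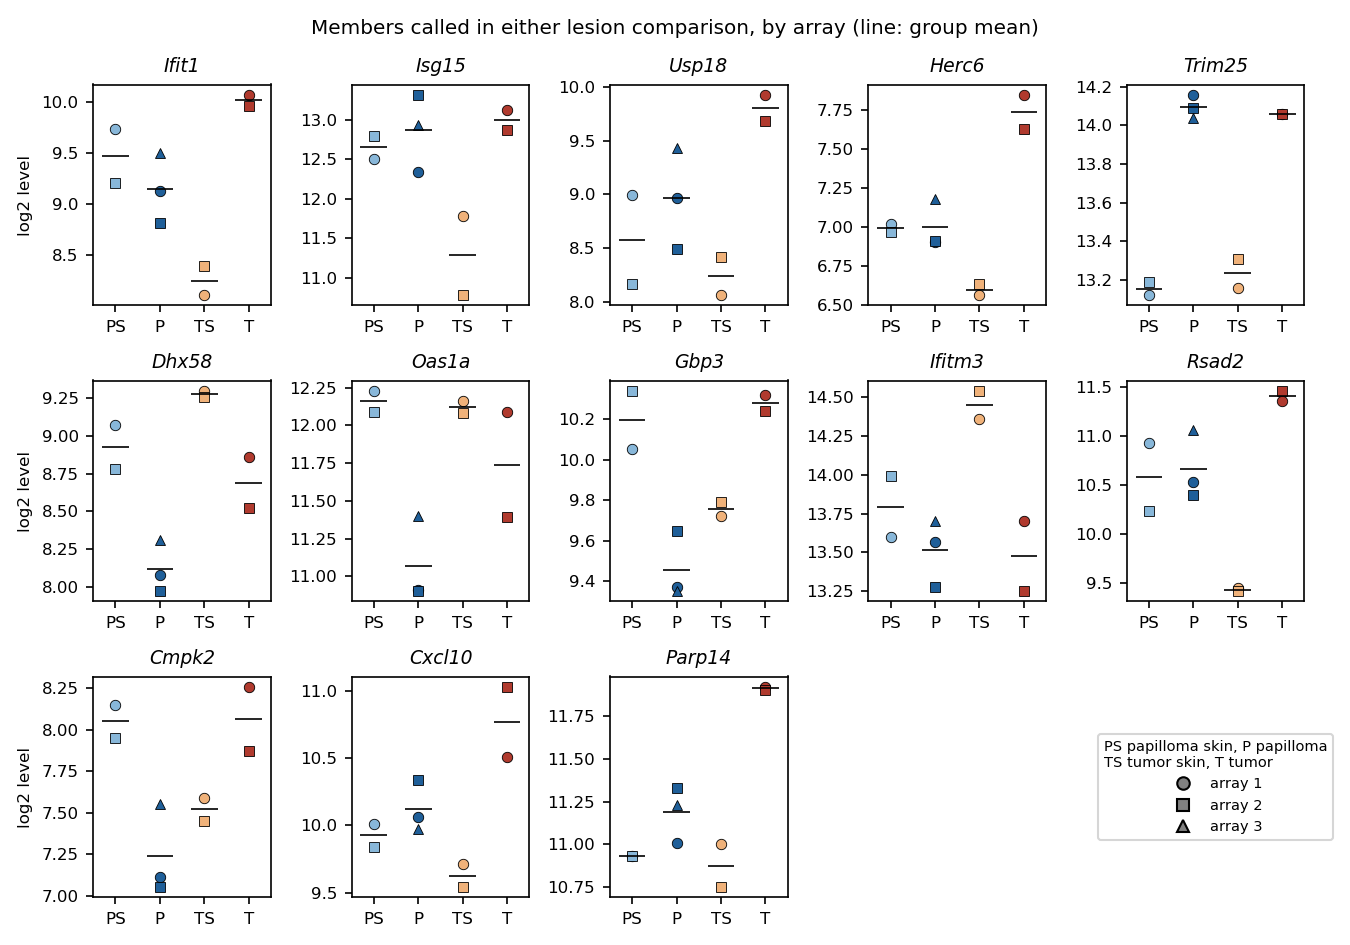
Log2 level by array of the 13 genes called in either lesion comparison, with the group mean as a line and the array number as the symbol. In the deposited values, both tumor arrays of Ifit1, Usp18, Herc6, Rsad2, Cxcl10 and Parp14 lie above the other 7 arrays. For Oas1a, Dhx58, Cmpk2 and Gbp3 the papilloma arrays lie below the papilloma skin arrays there.

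**Figure D3:**
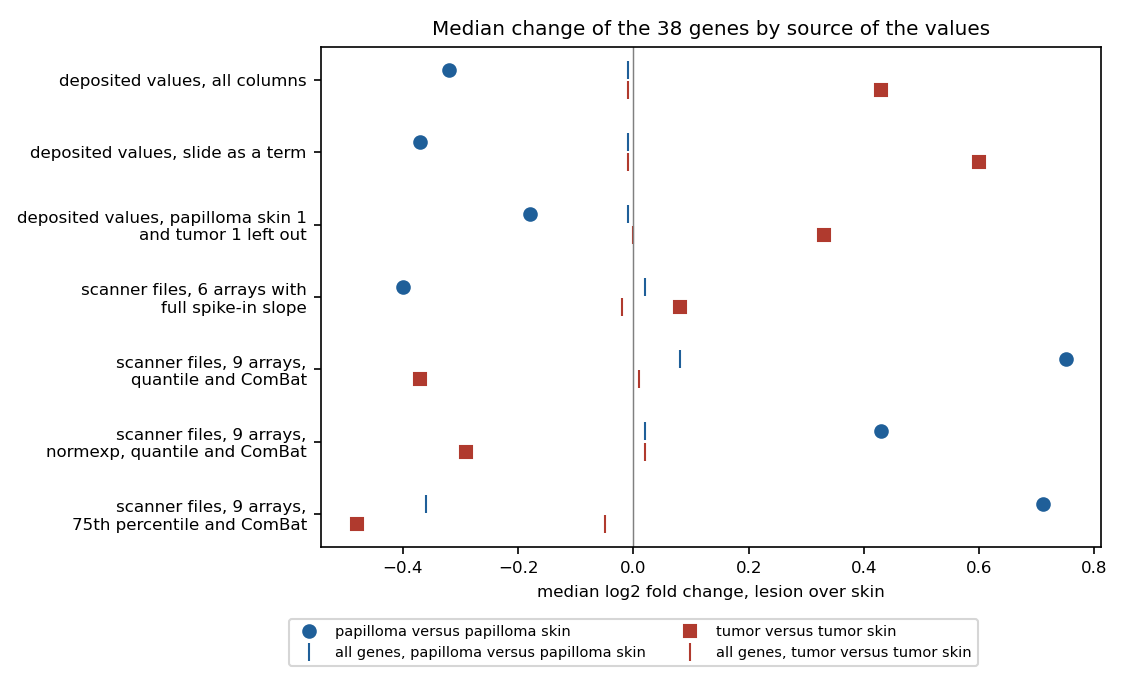
Median log2 fold change of the 38 genes, lesion over skin, from the deposited values and from the scanner files under 7 settings, with the median of all genes as short bars. Papilloma lies at -0.40 to -0.18 and tumor at 0.08 to 0.60 in the upper 4 settings, and both turn sign in the scanner files of all 9 arrays.

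The lesions were next compared with each other. Between tumor and papilloma no member passed the test (0.983% of all genes did). An unadjusted p under 0.05 by limma was seen in 14 members and in 5299 of all 34797 genes. The log2 fold change was positive in 33 of the 38, with a median of 0.37 against -0.01 for all genes, of which 16982 of 34797 were positive. The largest positive value was that of Gbp2, a large GTPase, at 12.91, 13.56 and 12.93 in papilloma and 14.11 and 13.95 in tumor (0.90, adjusted p = 0.235). The nearest to the threshold were Gbp3 (0.82, adjusted p = 0.0525), Herc6 (0.75, adjusted p = 0.0567) and Parp14 (0.72, adjusted p = 0.0672). The groups did not overlap in any of these 4 genes. Tumor lay wholly above papilloma in 16 of the 38 genes and in 6577 of all 34797. In the scanner files of all 9 arrays the list median was -0.13, and in the 6 full-slope arrays it was 0.37. Without papilloma skin 1 and tumor 1 it was 0.18, and within slides 1 and 2 it was 0.69 (with the column tumor 1) and 0.31 (with the column papilloma 2).

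Bst2 (tetherin, which holds budding virions at the membrane) had the largest negative value between tumor and papilloma (-1.12, SE 0.683, adjusted p = 0.477). Its arrays were spread widely, at 9.27, 8.16 and 10.51 in papilloma, 9.88 and 8.11 in papilloma skin, 7.95 and 8.12 in tumor skin and 8.38 and 8.01 in tumor. In the mouse Bst2 also marks plasmacytoid dendritic cells, and Siglech, a lectin of those cells, was at 7.91, 6.85 and 10.82 in papilloma, 8.43 and 6.39 in papilloma skin, 7.79 and 7.10 in tumor skin and 6.00 and 5.55 in tumor. Papilloma 3 and papilloma skin 1 held the highest levels of both genes, though the column papilloma skin 1 did not follow its own scanner file. In the scanner files of all 9 arrays, with quantile normalization and ComBat, Bst2 was at 8.07 in papilloma skin 1. It was at 9.08, 10.22 and 8.64 in papilloma there. All 12 dendritic cell markers had a negative change in tumor against papilloma, and 1 was called (H2-Eb1). The log2 of their summed level was 13.51 to 14.85 in papilloma and 12.16 to 12.29 in tumor. A negative change was also seen in 11 of 11 monocyte and macrophage, 10 of 10 endothelial, 9 of 10 fibroblast and 9 of 10 mast cell markers. It was seen in 7 of 10 eosinophil, 6 of 11 T and NK cell, 6 of 12 keratinocyte and 3 of 12 neutrophil markers. The cells had been sorted as Gr-1bright, with CD11c among the stains used. The part of dendritic and other cells in the Bst2 values was not tested.

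**Figure D4:**
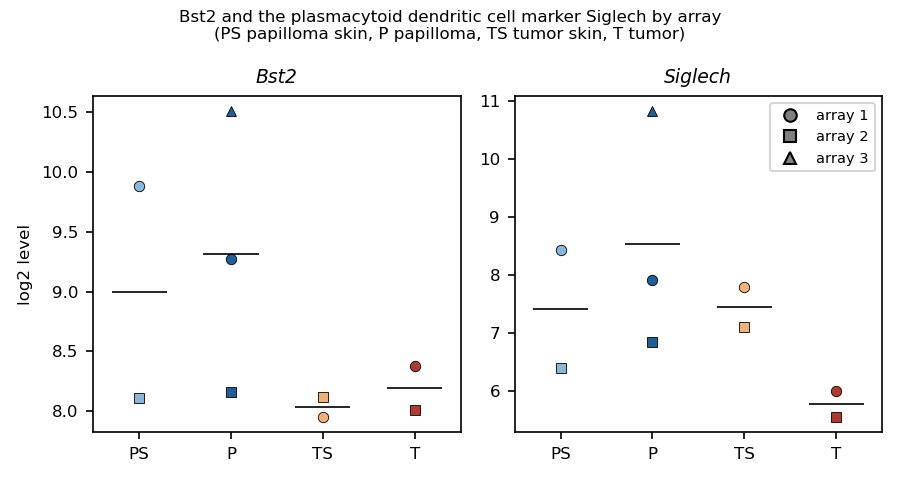
Log2 level of Bst2 and of the plasmacytoid dendritic cell marker Siglech by array, with group means as lines. In the deposited values, papilloma 3 is the highest array in both panels (10.51 and 10.82), followed by papilloma skin 1 (9.88 and 8.43).

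Tumor skin and papilloma skin were compared as the remaining pair. No member passed (0.98% of all genes did). An unadjusted p under 0.05 by limma was seen in 11 members and in 7736 of all 34797 genes. The largest values were Isg15 (-1.37, SE 0.383, adjusted p = 0.117) and Ifit1 (-1.22, SE 0.259, adjusted p = 0.0707), with Rsad2 next (-1.15, SE 0.271, adjusted p = 0.0866). In all 3 both tumor skin arrays lay below both papilloma skin arrays, as in 13 of the 38 genes and 8763 of all 34797. In the scanner files of all 9 arrays, with quantile normalization and ComBat, the groups overlapped for Isg15. There both tumor skin arrays lay above both papilloma skin arrays for Ifit1 and Rsad2. Isg15, Ifit1 and Rsad2 are the genes that changed most between tumor and tumor skin, and both comparisons use the same tumor skin arrays. The list median was -0.16, with 27 negative, against -0.02 for all genes. In the scanner files of all 9 arrays, with quantile normalization and ComBat, the median was 0.84, and with the 6 full-slope arrays it was -0.17, so that its direction depends on the source. It was -0.09 without papilloma skin 1 and tumor 1 and -0.18 within slide 1, which rests on the column papilloma skin 1.

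Whether the lesion effect itself differed between tumor and papilloma was tested as a contrast of contrasts. No member passed (0.118% of all genes did). An unadjusted p under 0.05 by limma was seen in 14 members and in 4911 of all 34797 genes. The largest difference was that of Ifit1, whose change in tumor exceeded that in papilloma by 2.09 on the log2 scale (SE 0.350, adjusted p = 0.0889), followed by Rsad2 with 1.89 (SE 0.367, adjusted p = 0.117). A gene called in tumor and not in papilloma was thus not shown to respond differently in the 2 lesions.

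Other genes of the pathway were followed as gene lists. For these genes and the cell markers, only the fit of the deposited values with all 9 arrays is given. Whether their calls hold under the other settings is not shown. None of the 9 ligand and type I receptor genes passed in either lesion comparison. In papilloma 1 had an unadjusted p under 0.05 by limma, as did 7571 of all 34797 genes. The receptor gene Ifnar2 was at 12.58 and 12.70 in papilloma skin, 12.73 to 12.92 in papilloma, 12.40 and 12.38 in tumor skin and 12.59 and 12.54 in tumor, and neither lesion differed from its skin by the test (adjusted p = 0.472 and 0.427). Stat2, a transcription factor of the pathway, gave -0.10 in papilloma and 0.12 in tumor, both short of the test. Of 10 signal transduction genes, the feedback inhibitors Socs1 and Socs3 alone were called, and both rose in both lesions. Of all genes, 4.8% rose in papilloma and 6.17% in tumor. Socs1 was at 9.66 and 9.60 in papilloma skin and 10.48, 10.99 and 10.77 in papilloma (1.12, adjusted p = 0.0133), and at 9.36 and 8.85 in tumor skin and 10.66 and 10.64 in tumor (1.55, adjusted p = 0.00554). Socs3, which cytokines other than interferon also induce, rose by 1.11 (adjusted p = 0.00973) and 1.07 (adjusted p = 0.0156).

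Among 12 measured genes of nucleic acid sensing, 1 rose and 0 fell in papilloma and 3 rose and 1 fell in tumor. Over the whole array, 4.8% of genes rose and 2.75% fell in papilloma, and 6.17% rose and 4.22% fell in tumor. When only genes whose mean level reached 6 were tested, 12.9% were called in papilloma and 17.3% in tumor. Ikbke, a kinase that acts on IRF3, rose by 1.06 in papilloma (adjusted p = 0.0254) and by 2.25 in tumor (adjusted p = 0.00219). Its relative Tbk1 rose by 1.51 in tumor (adjusted p = 0.00816) and the DNA sensor Aim2 by 1.44 (adjusted p = 0.0119), while the adaptor Myd88 fell by 0.98 (adjusted p = 0.0445). Of 34 further interferon-stimulated genes, 0 rose and 2 fell in papilloma (Ifitm6 and Ifi27l2a), with a median of -0.30 and 28 negative. In tumor 4 rose and 4 fell, with a median of -0.19 and 21 negative. Those that rose in tumor were Ifi47 (1.41), Slfn4 (1.21), Znfx1 (0.91) and Trim21 (0.89), and those that fell were Ifitm6 (-1.74), Ly6e (-1.43), Ube2l6 (-1.31) and Ifitm2 (-1.05). Ube2l6, the conjugating enzyme that hands ISG15 to its ligases, thus fell where Isg15, Usp18 and Herc6 rose. Ifitm2 and Ifitm6 fell in tumor together with Ifitm3 of their family. Genes of this family share sequence, and the part of cross-hybridization was not tested.

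Of 22 genes known best as targets of interferon gamma, 2 rose and 3 fell in papilloma and 3 rose and 2 fell in tumor. The shares of all genes were 4.8% and 2.75% in papilloma and 6.17% and 4.22% in tumor. Nos2 (inducible nitric oxide synthase) rose by 2.89 in papilloma (adjusted p = 0.000225) and by 2.81 in tumor (adjusted p = 0.000644). Cd274, which encodes the checkpoint ligand PD-L1, rose by 1.35 (adjusted p = 0.00973) and 1.39 (adjusted p = 0.0122). Irgm1, an immunity-related GTPase, rose by 1.54 in tumor (adjusted p = 0.0131). Gbp7 fell by 1.14, Ciita by 1.04 and Tap2 by 0.76 in papilloma, and in tumor Cd74 fell by 2.47 and Ciita by 1.28. Ifng itself was at 9.19 and 8.52 in papilloma skin and at 7.39, 6.88 and 7.07 in papilloma (-1.74, adjusted p = 0.0134). Markers of T and NK cells, which make it, were also lower in papilloma, 3 of 11 (Cd3d, Cd3g and Nkg7), with a median of -0.61. The log2 of their summed level was 11.95 to 12.40 in papilloma and 12.77 to 12.92 in papilloma skin. The part of these cells in the Ifng values was not tested.

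Markers of other cells moved with the lesions. Beside the counts below, 4.8% of all genes rose and 2.75% fell in papilloma, and 6.17% rose and 4.22% fell in tumor. Eosinophil markers fell, 6 of 10 in papilloma, where the log2 of the summed level was 11.35 to 11.67 against 13.70 to 14.06 in papilloma skin. In tumor 6 of 10 fell and 1 rose, with sums of 11.78 to 11.99 against 13.02 to 13.10 in tumor skin. Endothelial markers rose, 7 of 10 in papilloma (sums of 12.84 to 13.34 against 10.92 to 11.68) and 3 of 10 in tumor (11.20 to 12.07 against 10.68 to 11.04). Dendritic cell markers fell in tumor, 3 of 12 (12.16 to 12.29 against 13.75 to 14.52 in tumor skin). Cd74 and Ciita, named above as interferon gamma targets, are 2 of these 3. Of the T and NK cell markers, 1 fell in tumor (Cd3d, by 1.41), with sums of 12.06 to 12.12 against 12.71 to 12.91. Keratinocyte markers had a positive change in 12 of 12 in papilloma, with a median of 0.56 and none called, and in 11 of 12 in tumor, with a median of 1.11 and Krt14 called (3.29, adjusted p = 0.0346). The log2 of their summed level was 11.91 to 12.73 in papilloma skin, 12.97 to 14.18 in papilloma, 11.81 to 13.20 in tumor skin and 12.77 to 14.63 in tumor. Among the neutrophil markers, Ly6g fell by 2.09 in tumor (adjusted p = 0.00849) and Retnlg by 0.94 (adjusted p = 0.00624), and Retnlg fell in papilloma as well, by 0.88 (adjusted p = 0.00523). In bulk RNA, fewer cells of a type and less RNA per cell cannot be told apart, and the part of these cells in the interferon-stimulated genes was not tested.

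Spread within groups was wider for these genes than for the array as a whole, with no matching for level. The median SD was 0.28 against 0.18 for all genes in papilloma skin (n = 2), 0.20 against 0.19 in tumor skin (n = 2), 0.29 against 0.17 in papilloma (n = 3) and 0.26 against 0.15 in tumor (n = 2). Besides Ifit3, Irf7, Mx1, Gbp2, Bst2 and Ifitm1, the members short of the test in every comparison were Ifit2, Irf9, Ifih1, Ddx58, Zbp1, Eif2ak2, Oas1g, Oas2, Oas3, Oasl1, Oasl2, Mx2, Rtp4, Isg20, Tap1, Ifi44, Ifi35, Xaf1 and Trim30a. Isg20, an RNA exonuclease, gave 0.55 in papilloma (adjusted p = 0.102) and 0.70 in tumor (adjusted p = 0.0534), with no overlap between lesion and skin in either. Tap1, a peptide transporter of antigen presentation, gave -0.70 and 0.83 with adjusted p of 0.427 and 0.326, its tumor skin arrays being 9.13 and 7.84.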

How the data were processed

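Gene expression was measured on 9 one-color Agilent mouse arrays in 4 groups, the arrays lying on 3 slides as the scanner files label them. The authors deposited scanner files of Feature Extraction (version 10.7.3.1, probe positions on mm9) that hold fluorescence intensity per spot, background-subtracted and not scaled between arrays. A table of log2 values by probe was deposited by the authors as well, and per the methods it was quantile normalized with limma and corrected for slide with ComBat. Correction before the fit leaves the slide out of the degrees of freedom that limma counts.

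From the log2 table, the median over the probes of a gene name was taken (55681 probes, 34797 genes, 51 probes for the 38 members). All 9 arrays were fitted together (limma 3.58.1 in R 4.3.3, lmFit and eBayes, 5 residual degrees of freedom, no covariates), p-values were adjusted over all genes with Benjamini-Hochberg, and a gene was called at 0.05. Each lesion was compared with its skin, the lesions and the skins with each other, and the lesion effects between stages. Probes were scored as well above background by the scanner software, and the number of arrays limits the precision. The fit was tested on simulated data. With a simulated slide shift, limma after ComBat with the groups kept called many unchanged genes, so counts with slide as a term are given beside the main ones. Alternatives covered the source of the values, scaling, slide, filters, call rule, probes and single arrays. Promoters were searched on both strands. The members and lists were chosen with earlier results of these data known. Genes given with values were the called members (up to 6 per direction), the 2 largest changes per contrast, fixed examples (Isg15, Irf7, Ifit1 and Cxcl10, with another not reported here) and listed pathway genes that were called; Cmpk2, Ifit2, Ifit3, Ifitm1, Gbp3, Herc6, Parp14, Isg20, Tap1, Ifnar2, Stat2, Irf9, the Oas family, Bst2 with Siglech, and the values of sensors were added after the values were seen. P-values measure the spread between arrays of pooled animals.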

Additional observations from a re-analysis of the deposited data

How the results depend on the processing

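In papilloma against papilloma skin, 5 members were called. The count was 0, 11, 8 and 0 in the scanner files with slide as a term, scaled to the 75th percentile, with normexp, and in the 6 full-slope arrays, where 0, 43.2, 16.5 and 0 percent of all genes were called. It was 1 with slide as a term (2.55% of all genes) and 3 when fitted by probe (6.35% of all probes). With the change and level minimum of the methods it was 1 (3.6% of all genes). Without papilloma 1, 2 or 3 it was 1, 2 or 4, where 3.94%, 4.44% or 3.69% of all genes were called. In tumor against tumor skin, 9 were called. The scanner files gave 0 with quantile normalization and ComBat, 0 with slide as a term, 0 at the 75th percentile and 1 with normexp. The share of all genes called was 0.825%, 0%, 0.229% and 2.22% in that order. With the deposited values the count was 3 with slide as a term (0.601% of all genes). Without papilloma 1, 2 or 3 it was 8, 9 or 7, where 6.99%, 7.74% or 6.06% of all genes were called. Leaving out a tumor or tumor skin array left a single array in that group. Tumor against papilloma gained 1 call (Gbp3) at a mean level of at least 6, where 1.66% of all genes were called. Neither the skin comparison nor the difference between the lesion effects had a called member under any setting run.

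The list median reversed in the scanner files of all 9 arrays. In the order quantile with ComBat, quantile with slide as a term, 75th percentile and normexp, it was 0.75, 0.75, 0.71 and 0.43 in papilloma against papilloma skin, -0.37, -0.45, -0.48 and -0.29 in tumor against tumor skin, -0.13, -0.13, -0.26 and -0.07 in tumor against papilloma, and 0.84, 0.86, 1.06 and 0.47 between the skins. The cause was not tested. Scaling to the 75th percentile moved the median of all genes to -0.36 in papilloma against papilloma skin and to 0.27 in tumor against papilloma. The median moved to -0.18 (papilloma against its skin) and 0.18 (tumor against papilloma) without papilloma skin 1 and tumor 1, to 0.08 (tumor against its skin) in the full-slope arrays, and to 0.60 (tumor against its skin) and -0.30 (between the skins) with slide as a term. Without single arrays it ranged from -0.45 to -0.18, 0.29 to 0.52, 0.18 to 0.59 and -0.32 to -0.09 in the same order of comparisons.

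The deviations of same-numbered arrays correlated at -0.932 to 0.431 over all 12 pairs, and at 0.14, 0.431, 0.31 and 0.31 between a lesion and its own skin (the tumor values are equal by construction). The labels do not say what the number marks, and whether it pairs the arrays was not settled. With the replicate block, 0 members were called in papilloma and 3 in tumor, and the tumor against papilloma median was 0.52. Crossing the numbers of the skin arrays, chosen after seeing the data, gave 0 called members, as did the labelled numbers, with 1 residual degree of freedom and 0 called genes on the array, which tells nothing of the pairing. With 2 or 3 arrays in a group, a missed call does not show equal levels.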
